A study of Rattus norvegicus with 24 samples.

Results

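The immunoproteasome and antigen presentation genes described here were Psmb8, Psmb9, Psmb10, Psme1, Psme2, Tap1, Tap2, B2m and Cd74. They were chosen by name: a probe set was included when the platform annotation gave it 1 gene symbol and that symbol was a member. The 9 genes were read by 10 probe sets, with 2 for Psme2 and 1 for each other gene, out of 20917 probe sets and 16856 named genes on the array. Signal is given as log2(deposited intensity + 16), and all 10 probe sets were bright enough to be tested.

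The samples were livers of adult Sprague-Dawley females of the F2 generation, 1 Affymetrix array each, hybridised from 200 ng of total RNA. Lines are named by the F0 grandfather's food, chow in the chow line and a high-fat diet (HFD) in the HFD line, and each F2 female then ate chow or an HFD for 12 weeks. The HFD drew 42/45% of its energy from fat, as the labels write it. GpatCD-CD (7 arrays) held chow-line females on chow, GpatCD-HF (6 arrays) chow-line females on the HFD, GpatHF-CD (6 arrays) HFD-line females on chow, and GpatHF-HF (5 arrays) HFD-line females on the HFD. No group carried a transgene or drug in the labels, and the F1 parents' food is not stated there. Litters and grandfathers are not recorded per female, so p-values treat the arrays as independent animals and would be too small if some were related. The growth protocol names gonadal white adipose tissue while every title and tissue label names liver, and the 9 measured hepatocyte markers, among them albumin and transferrin, summed to intensities of 62034 to 79042 per array. A set of 4 arrays stood apart from the other 20 on the second principal component over the probe sets tested, which held 13.8% of the variance. They were arrays 21 and 25 of GpatCD-CD, 22 of GpatCD-HF and 24 of GpatHF-HF, with none in GpatHF-CD.

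The proteasome degrades ubiquitin-tagged proteins, and its peptides are the main source of the short antigens that cells show to CD8+ T cells on MHC class I. Interferon gamma induces alternative catalytic subunits, Psmb8, Psmb9 and Psmb10, which replace the constitutive Psmb5, Psmb6 and Psmb7 in newly assembled core particles and favour peptides with ends that fit MHC class I. The Tap transporter carries these peptides into the endoplasmic reticulum, where class I heavy chains wait with beta-2-microglobulin, while Cd74 guards the groove of MHC class II in antigen-presenting cells. In liver the class I pathway is found in hepatocytes and in resident immune cells, while Cd74 belongs mainly to antigen-presenting cells such as macrophages, dendritic cells and B cells.

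Promoter sequences are shown because several members share the element through which interferon-activated factors act. RefSeq sequence of the rat assembly GRCr8 was read from 250 bases before to 50 bases after each gene's start, and all 9 members were matched. The core of the interferon-stimulated response element, TTTC followed by any 2 bases and TTTC again, was searched on both strands and was found in the windows of 6 members (Psmb8, Psmb10, Psme2, Tap1, Tap2 and B2m), against 3.92% of 33465 windows. It was not found in those of Psmb9, Psme1 and Cd74, nor in those of the constitutive Psmb5, Psmb6 and Psmb7. The motif TTCNNNGAA, the gamma-activated sequence, which is its own reverse complement, was found in the window of 1 member, Psmb8, against 8.87% of windows. These are matches of letters and say nothing of binding. The stretches below end at the base before the start, except that of Psmb8, which runs 6 bases past it because its motif spans the start. Capitals mark that core motif or its reverse complement, each sequence is written 5′ to 3′ on the strand of its gene, and Psmb9 and Psmb5 are shown as windows without a match.
Psmb8 (chr20:4657026-4657191, minus strand): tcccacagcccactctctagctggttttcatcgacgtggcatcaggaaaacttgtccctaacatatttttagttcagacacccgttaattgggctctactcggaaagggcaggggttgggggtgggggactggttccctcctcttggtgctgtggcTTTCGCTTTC
Psmb10 (chr19:50743293-50743452, minus strand): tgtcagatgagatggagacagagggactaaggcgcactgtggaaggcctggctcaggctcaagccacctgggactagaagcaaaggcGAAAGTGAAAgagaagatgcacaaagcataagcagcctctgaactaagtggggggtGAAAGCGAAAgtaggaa
Psme2 (chr15:33052752-33052911, minus strand): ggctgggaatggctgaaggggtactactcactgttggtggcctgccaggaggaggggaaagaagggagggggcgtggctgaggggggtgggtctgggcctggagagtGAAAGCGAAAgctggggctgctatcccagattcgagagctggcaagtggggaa
Tap1 (chr20:4668544-4668703, minus strand): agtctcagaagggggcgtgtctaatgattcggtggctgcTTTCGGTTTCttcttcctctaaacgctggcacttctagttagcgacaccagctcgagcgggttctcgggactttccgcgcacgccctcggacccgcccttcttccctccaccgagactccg
Tap2 (chr20:4652297-4652456, minus strand): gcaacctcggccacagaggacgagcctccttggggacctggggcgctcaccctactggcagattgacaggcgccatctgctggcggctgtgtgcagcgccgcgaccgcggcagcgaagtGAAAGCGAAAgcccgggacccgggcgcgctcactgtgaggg
Psmb9 (chr20:4668840-4668999, plus strand): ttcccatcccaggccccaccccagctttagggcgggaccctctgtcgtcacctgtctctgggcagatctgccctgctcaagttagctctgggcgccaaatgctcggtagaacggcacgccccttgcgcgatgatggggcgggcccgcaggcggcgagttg
Psmb5 (chr15:32047380-32047539, minus strand): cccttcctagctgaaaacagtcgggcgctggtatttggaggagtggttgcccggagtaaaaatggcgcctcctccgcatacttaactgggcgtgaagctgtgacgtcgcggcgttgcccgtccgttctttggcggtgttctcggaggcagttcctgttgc
Psmb10 was the member with 2 matches. Tap2, Psmb8, Tap1 and Psmb9 are consecutive protein-coding genes on chromosome 20, between the MHC class II genes RT1-DOb and RT1-DMb. Tap1 and Psmb9 run away from each other with 456 bases between their starts. The match upstream of Tap1 lies 336 bases from the start of Psmb9, outside the window searched for that gene.

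Own diet was compared as HFD minus chow, averaged over the lines. Psmb8 and Psmb9, the interferon-induced catalytic subunits that replace Psmb5 and Psmb6, fell on the HFD, by 0.45 ± 0.11 (SE) and 0.38 ± 0.09 on the log2 scale, or 1.36-fold and 1.30-fold. Their adjusted p-values were 0.0274 and 0.0233 (limma, Benjamini-Hochberg adjustment over 15687 probe sets). These were 2 of the 10 member probe sets, where 1.99% of all tested probe sets passed in either direction and 1.63% passed as lower. Because the members were chosen with earlier results of these data known, these shares are a description only. All 9 genes had a difference below 0, as did 64.0% of all tested probe sets, and the median over the 9 genes was -0.23 against -0.03 over all tested probe sets.

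Psmb8 encodes the chymotrypsin-like catalytic subunit of the immunoproteasome. Its log2 signal had a lowest, median and highest value of 9.82, 10.15 and 10.52 in GpatCD-CD, and of 9.34, 9.80 and 10.28 in GpatCD-HF. In GpatHF-CD the same values were 9.996, 10.21 and 10.44, and the 5 arrays of GpatHF-HF read 9.21, 9.71, 9.65, 9.46 and 10.02. The HFD groups were lower in both lines but overlapped the chow groups, in the HFD line by the highest HFD array alone. The differences were -0.30 ± 0.15 in the chow line (adjusted p = 0.560) and -0.59 ± 0.16 in the HFD line (adjusted p = 0.0744), so Psmb8 passed the threshold of 0.05 in the average alone. That call was lost when array 34, 42, 24 or 46 was left out, with an adjusted p of up to 0.0607 and differences of -0.50 to -0.40 over all 24 such fits.

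Psmb9 encodes the subunit that takes the caspase-like position of the core. Its lowest, median and highest log2 signals were 10.36, 10.73 and 11.15 in GpatCD-CD and 10.03, 10.41 and 10.97 in GpatCD-HF. They were 10.36, 10.66 and 10.80 in GpatHF-CD, and the arrays of GpatHF-HF read 10.02, 10.14, 10.24, 10.26 and 9.94. In the HFD line every HFD array was below every chow array, while the groups overlapped in the chow line. The differences were -0.27 ± 0.12 in the chow line (adjusted p = 0.521) and -0.49 ± 0.13 in the HFD line (adjusted p = 0.0760). The averaged call of Psmb9 was kept with each array left out in turn, with differences of -0.43 to -0.34 and an adjusted p of at most 0.0468.

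Psmb10, which takes the trypsin-like position, had the widest spread between arrays among the immunosubunits. Its log2 signals ranged from 8.95 to 10.11 in GpatCD-CD (median 9.70), from 8.81 to 10.31 in GpatCD-HF (median 9.49) and from 9.18 to 9.97 in GpatHF-CD (median 9.44). The arrays of GpatHF-HF read 8.46, 9.47, 9.37, 9.18 and 9.20. The averaged difference was -0.24 ± 0.15 (adjusted p = 0.508), and the groups overlapped in both lines.

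Psme1 and Psme2 encode the alpha and beta subunits of the PA28 activator, a ring that caps the core and opens its gate. For Psme1 the averaged difference was -0.30 ± 0.11 (adjusted p = 0.183), with -0.21 ± 0.15 in the chow line and -0.39 ± 0.16 in the HFD line. Without arrays 21, 22, 24 and 25 these were -0.37 and -0.28 (adjusted p = 0.310 and 0.332 in limma), the larger difference then being in the chow line. Its means were 10.65 ± 0.36 (SD, n = 7) in GpatCD-CD, 10.44 ± 0.29 (n = 6) in GpatCD-HF, 10.83 ± 0.17 (n = 6) in GpatHF-CD and 10.44 ± 0.29 (n = 5) in GpatHF-HF, so the HFD means of the lines were the same to 2 decimals and the chow means were not.

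For Psme2 the own-diet difference was near 0 in the chow line and larger in the HFD line, past the threshold in neither. Its first probe set had a lowest, median and highest log2 signal of 11.08, 11.56 and 11.68 in GpatCD-CD, 11.18, 11.43 and 11.74 in GpatCD-HF, and 11.31, 11.50 and 11.69 in GpatHF-CD. The arrays of GpatHF-HF read 11.15, 11.29, 10.91, 11.02 and 10.86, all below the lowest GpatHF-CD array. The difference was 0.01 ± 0.11 in the chow line and -0.47 ± 0.12 in the HFD line, 1.38-fold lower with an adjusted p of 0.0517. The second probe set gave 0.03 ± 0.12 and -0.52 ± 0.14 (adjusted p = 0.0664), with GpatHF-HF arrays at 10.65, 10.82, 10.43, 10.37 and 10.28 and an overlap by 1 array with GpatHF-CD. The 2 probe sets followed each other closely over the 24 arrays (Pearson r = 0.966 after centring each array on its median), and the files do not say whether they read separate transcripts. Averaged over the lines, the 2 probe sets were at -0.23 ± 0.08 (adjusted p = 0.151 in limma) and -0.24 ± 0.09 (adjusted p = 0.211). The test of whether the diet effect differed between the lines did not pass for either, at -0.48 ± 0.16 (adjusted p = 0.308) and -0.55 ± 0.18 (adjusted p = 0.334).

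**Figure D1:**
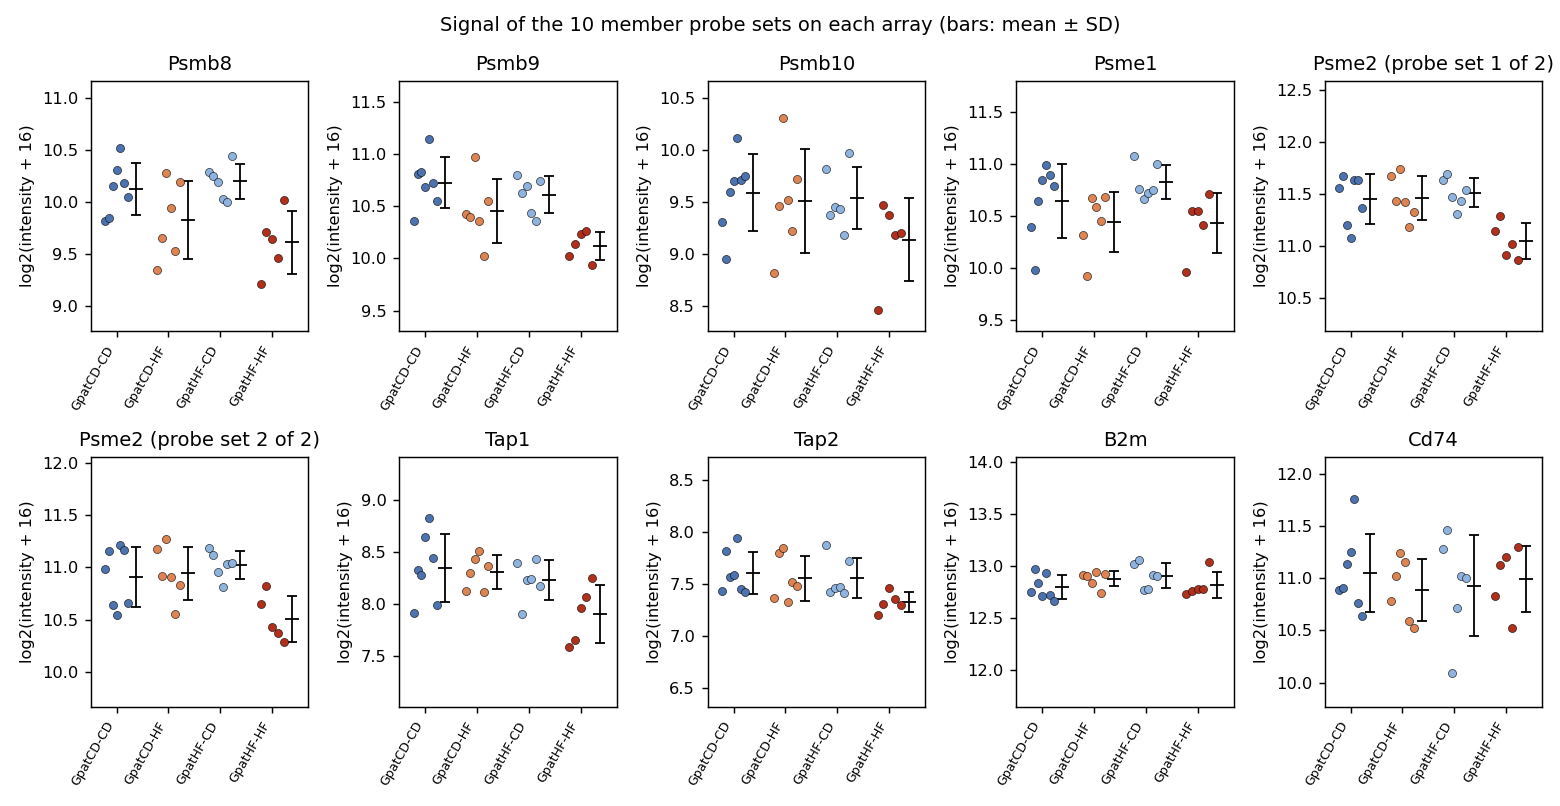
Log2(intensity + 16) of the 10 probe sets on each of the 24 arrays by group, with the mean ± SD beside the points and axes of equal span. The GpatHF-HF arrays of Psmb9 and of the first Psme2 probe set lie below all GpatHF-CD arrays, and the Cd74 and B2m groups overlap throughout.

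Tap1 and Tap2 together form the peptide transporter. The Tap1 arrays of GpatHF-HF read 7.59, 7.66, 7.96, 8.07 and 8.25, against 7.91 to 8.44 in GpatHF-CD (median 8.24), 8.12 to 8.51 in GpatCD-HF (median 8.34) and 7.92 to 8.83 in GpatCD-CD (median 8.33). The groups overlapped, and the own-diet difference was -0.04 ± 0.14 in the chow line and -0.33 ± 0.15 in the HFD line (adjusted p = 0.283). Tap2 gave -0.05 ± 0.11 and -0.24 ± 0.12 (adjusted p = 0.319), with means from 7.32 ± 0.10 (SD, n = 5) in GpatHF-HF to 7.60 ± 0.20 (n = 7) in GpatCD-CD. Averaged over the lines, Tap1 was at -0.18 ± 0.10 (adjusted p = 0.444 in limma) and Tap2 at -0.14 ± 0.08 (adjusted p = 0.455).

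B2m, the light chain that every classical MHC class I molecule needs, had the smallest spread within groups of the 10 probe sets (SD 0.11). Its group means lay between 12.80 ± 0.12 (SD, n = 7) in GpatCD-CD and 12.91 ± 0.12 (n = 6) in GpatHF-CD, and its averaged own-diet difference was -0.01 ± 0.05 (adjusted p = 0.979), which became 0.04 when each array was centred on its median. Cd74, the invariant chain of MHC class II, gave -0.05 ± 0.14 (adjusted p = 0.921), which became 0.01 after quantile normalization. Its array values spread widely, from 10.09 to 11.47 in GpatHF-CD alone, and its differences were -0.17 ± 0.19 in the chow line and 0.07 ± 0.21 in the HFD line.

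**Figure D2:**
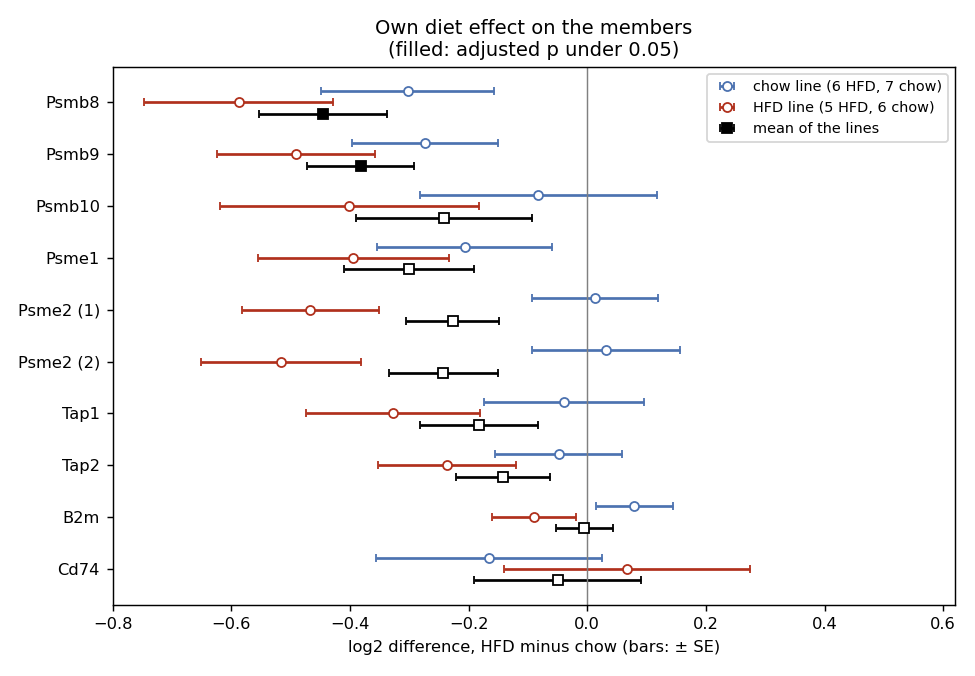
Log2 difference of HFD minus chow for each member probe set, ± SE, in the chow line, in the HFD line and averaged, with filled symbols for an adjusted p under 0.05. The averaged values of Psmb8 (-0.45) and Psmb9 (-0.38) are the filled ones, and the lines lie furthest apart for Psme2.

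Within each line the count of members past the threshold was 0 of 10, where 0.319% of tested probe sets passed in the chow line and 0.752% in the HFD line. At an unadjusted p under 0.05 in limma, 2 of 10 member probe sets were lower in the chow line (4.12% of all tested) and 6 of 10 in the HFD line (13.4% of all tested). Median differences over the 9 genes were -0.08 in the chow line and -0.39 in the HFD line, against 0.01 and -0.09 over all tested probe sets. After quantile normalization the HFD-line median of the members was -0.25, against -0.0028 over all tested probe sets, and it was also -0.25 without array 24 alone. With single arrays left out the chow-line median ran from -0.24 without array 32 to 0.0047 without array 28, so its sign rests on single arrays. The groups did not overlap for 2 of 10 member probe sets in the HFD line, where 2.71% of all tested probe sets were lower without overlap. Psme2, Psmb8 and Psmb9 lay close to the threshold in the HFD line. With the 2 groups of that line fitted alone, 3 member probe sets passed (both Psme2 probe sets at an adjusted p of 0.0424 and Psmb9 at 0.0444). After quantile normalization their adjusted p-values were 0.117 to 0.205, and 0 passed.

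The comparisons of grandpaternal diet, HFD line minus chow line, share groups with those of own diet. On chow, 0 of 10 member probe sets passed in limma, as did 0% of all tested probe sets. At an unadjusted p under 0.05 there were 0 of 10 members and 9.15% of all, and the members' differences ran from -0.12 to 0.18 with a median of -0.04. On the HFD, 0 of 10 passed and 0% of all did, with 4 of 10 members and 11.0% of all at an unadjusted p under 0.05 in limma. Those 4 were both probe sets of Psme2, at -0.42 ± 0.12 (adjusted p = 0.279) and -0.43 ± 0.14 (adjusted p = 0.325), Tap1 at -0.40 ± 0.15 (adjusted p = 0.421) and Psmb9 at -0.34 ± 0.13 (adjusted p = 0.434). Psmb10, not among them, was at -0.37 ± 0.22 (adjusted p = 0.494). Psme1 was at -0.01 ± 0.16 (0.14 after quantile normalization) and Cd74 at 0.11 ± 0.21. The median was -0.23 over the 9 genes and -0.10 over all tested probe sets, 81.0% of which were below 0, and the members' median became -0.13 after quantile normalization. The mean of the arrays' median log2 signal was 7.83 ± 0.08 (SD, n = 5) in GpatHF-HF and 7.96 in each other group, so array brightness moved with this group. With each array centred on its median, the own-diet differences in the HFD line were -0.52 for Psmb8, -0.43 for Psmb9, -0.40 and -0.45 for Psme2, and -0.26 for Tap1.

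GpatHF-HF had the lowest mean in 8 of 10 probe sets, the exceptions being B2m, lowest in GpatCD-CD, and Cd74, lowest in GpatCD-HF. The share of all tested probe sets with their lowest mean in GpatHF-HF was not computed. Of all tested probe sets, 71.6% were lower in GpatHF-HF than in GpatHF-CD and 81.0% lower than in GpatCD-HF. A low GpatHF-HF mean was therefore common on these arrays and is not particular to the members. The highest mean was in GpatCD-CD for 5 probe sets and in GpatHF-CD for 5. Of the 30 gaps between neighbouring means, 24 were under 1 SD of the arrays within groups. Of the 6 wider gaps, 5 set GpatHF-HF below the next group (Psmb9, both Psme2 probe sets, Tap1 and Tap2), and that of Psmb8 lay between GpatCD-HF and GpatCD-CD. For Psmb9 the order was 10.12 ± 0.14 (SD, n = 5) in GpatHF-HF, 10.46 ± 0.31 (n = 6) in GpatCD-HF, 10.61 ± 0.18 (n = 6) in GpatHF-CD and 10.73 ± 0.25 (n = 7) in GpatCD-CD. The interaction of the diets and the averaged grandpaternal diet also passed for 0 of 10 member probe sets (0% of all tested). At an unadjusted p under 0.05 in limma there were 2 of 10 member probe sets for the interaction (9.71% of all tested), both of the 1 gene Psme2. For the averaged grandpaternal diet there were 3 of 10 (11% of all tested), among them Tap1 at -0.26 ± 0.10 (adjusted p = 0.366) and Psmb9 at -0.23 ± 0.09 (adjusted p = 0.378).

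Because arrays 21, 22, 24 and 25 were picked from the signals, the members' values on them are a description without a test. After allowing for group, Psmb10 was lower on them by a difference of -0.75 ± 0.15, Psme1 by -0.50 ± 0.12, Psmb8 by -0.48 ± 0.12 and Tap1 by -0.31 ± 0.13, while Psme2 was at 0.21 ± 0.10 and 0.23 ± 0.12. Psmb9 was at -0.14 ± 0.12 and B2m at 0.02 ± 0.07. Without these arrays the averaged own-diet differences of Psmb8 and Psmb9 were -0.41 (adjusted p = 0.0312) and -0.40 (adjusted p = 0.0385), and both still passed. In the HFD line the differences without them were -0.49 for Psmb8, -0.47 for Psmb9 and -0.49 and -0.55 for Psme2, while that of Psmb10 went from -0.40 to -0.23.

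The immunosubunits were set against the constitutive subunits they replace, as the difference of the log2 signals within each array. The probe sets of a pair differ in their binding, so only changes of this difference between groups were compared, in 12 exact two-sided permutation tests of the arrays with Benjamini-Hochberg adjustment over the 12. None of the 12 passed, and 3 had an unadjusted exact permutation p of 0.0128 to 0.0204. Psmb8 minus Psmb5 was lower on the HFD in the HFD line by a difference of -0.38 ± 0.14 (exact permutation p = 0.0130, adjusted p = 0.0779), with 5 of 5 HFD arrays below the chow mean. With single arrays left out that difference ran from -0.44 to -0.29, with adjusted exact permutation p-values of 0.0769 to 0.159. In the chow line Psmb8 minus Psmb5 was at -0.09 ± 0.20 (exact permutation p = 0.632). Psmb9 minus Psmb6 was at -0.27 ± 0.10 in the chow line (exact permutation p = 0.0204, adjusted p = 0.0816), with 6 of 6 HFD arrays below the chow mean. In the HFD line it was at -0.10 ± 0.08 (exact permutation p = 0.251), also with 5 of 5 HFD arrays below the chow mean.

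Psmb10 minus Psmb7 differed by -0.06 ± 0.18 and 0.04 ± 0.12 with own diet in the chow and HFD lines. Between the lines on chow it was at -0.37 ± 0.12 (exact permutation p = 0.0128, adjusted p = 0.0779), with 6 of 6 HFD-line arrays below the chow-line mean. That last value became an adjusted p of 0.0260, past the threshold, when array 25 of GpatCD-CD was left out. The 2 groups differed mainly in the partner, as Psmb7 had a mean of 11.87 in GpatHF-CD and 11.55 in GpatCD-CD. Psmb10 itself differed between them by -0.05 ± 0.20 (adjusted p = 0.957 in limma). The constitutive partners had own-diet differences of -0.21 ± 0.11 for Psmb5, -0.39 ± 0.12 for Psmb6 (adjusted p = 0.110) and -0.44 ± 0.11 for Psmb7 (adjusted p = 0.0512) in the HFD line, where Psmb9 and Psmb10 had -0.49 and -0.40. In the chow line Psmb5 was at -0.21 ± 0.10, Psmb6 at 0.00 ± 0.11 and Psmb7 at -0.02 ± 0.10.

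**Figure D3:**
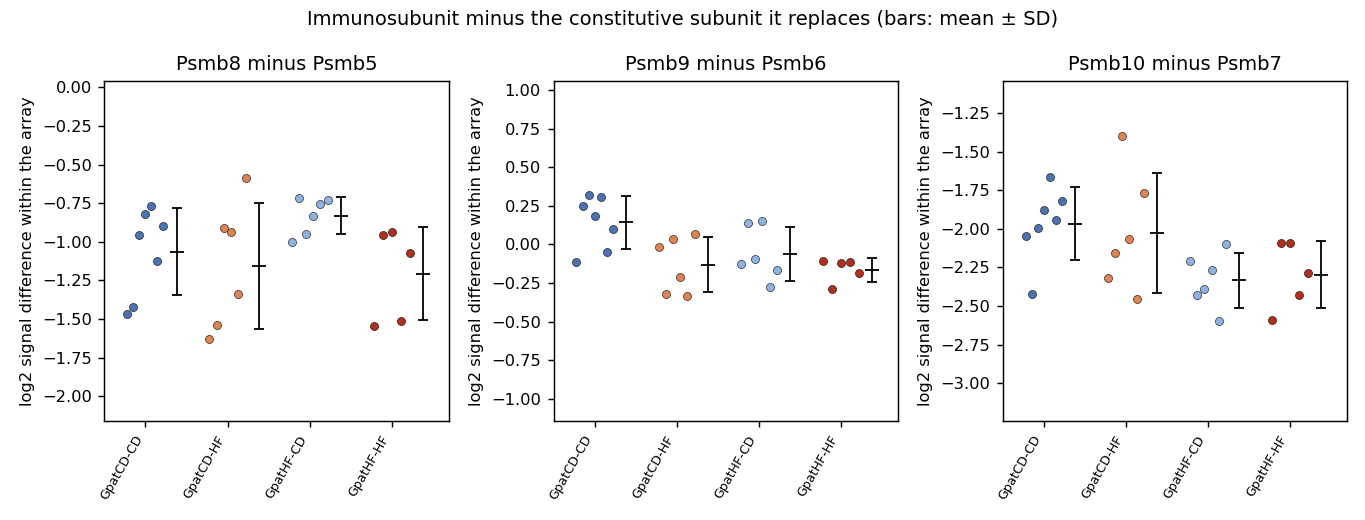
Log2 signal of each immunosubunit minus that of the constitutive subunit it replaces, on each array by group, with the mean ± SD. The groups overlap in all 3 panels, and none of the 12 comparisons passed after adjustment.

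The other genes of the pathway were taken from lists chosen for their roles and read in the averaged own-diet comparison, against the same 1.99% of all probe sets that passed. Of 13 measured constitutive core subunits 0 passed, with all 13 below 0 and a median of -0.12. Of 17 subunits of the 19S cap, which recognises and unfolds substrates, 0 passed, with all 17 below 0 and the same median of -0.12. In the HFD line the medians of these lists were -0.27 and -0.25, with all 13 and all 17 below 0 (71.6% of all tested probe sets), against 0.02 and 0.02 in the chow line, where 4 and 6 were below 0 (45.6% of all tested). Among 7 other activators and assembly factors 0 passed, and Pomp, the chaperone that matures the core, was at 0.10 ± 0.11 in the chow line and -0.46 ± 0.12 in the HFD line (adjusted p = 0.0674). Among 7 peptide-loading genes 0 passed, with Tapbp, the tapasin bridge between Tap and class I, at -0.25 ± 0.11 (adjusted p = 0.270).

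MHC class I genes on the RT1 locus had a median of -0.22 over 20 tested genes, with 19 below 0. RT1-N3 fell by 0.51 ± 0.13 (adjusted p = 0.0302), while RT1-N2 was at -0.54 ± 0.15 (adjusted p = 0.0584) and RT1-CE13 at -0.33 ± 0.09 (adjusted p = 0.0635). Whether each probe set tells these related genes apart was not checked. RT1-N3 lost its call after quantile normalization (adjusted p = 0.0907), after centring (0.0641), without the 4 arrays (0.0615) and in 10 of 24 fits with an array left out. Of 8 MHC class II genes 0 passed, with a median of -0.06, and of 7 partners of class II besides Cd74, Ctss fell by 0.53 ± 0.13 (adjusted p = 0.0235). Ctss encodes cathepsin S, the protease that trims the product of Cd74, and its call was lost without the 4 arrays (adjusted p = 0.0632) and without array 45 (adjusted p = 0.0558).

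Of 13 genes of interferon gamma signalling, 1 fell. This was Irf1, the transcription factor that binds the interferon-stimulated response element, at -0.53 ± 0.14 (adjusted p = 0.0417), a call lost with no filter on dim probe sets (adjusted p = 0.0508), without the 4 arrays (adjusted p = 0.130) and in 15 of 24 fits with an array left out. The median of the list was -0.12. Of 24 other interferon-stimulated genes 0 passed, with 23 below 0 and a median of -0.15, led by Irf7 (-0.41 ± 0.18, adjusted p = 0.301) and Isg15 (-0.37 ± 0.16, adjusted p = 0.305). For the averaged grandpaternal diet 0 of these 24 passed, with all 24 below 0 (74.2% of all tested) and a larger median of -0.28. There 15 of 24 were lower at an unadjusted p under 0.05 in limma (10.4% of all tested), against 4 of 24 for own diet (10.6% of all tested). MHC class I had 11 of 20 lower at that p for grandpaternal diet and 13 of 20 for own diet.

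Markers of other liver cells were read in the same averaged comparison. Of 12 measured Kupffer cell and macrophage markers 3 fell, with all 12 below 0 and a median of -0.36. They were Marco (-1.16 ± 0.16, adjusted p = 6.9e-05), Cd5l (-0.70 ± 0.14, adjusted p = 0.00731) and Vsig4 (-0.55 ± 0.14, adjusted p = 0.0393), the last of which lost its call in 16 of 24 fits with an array left out and without the 4 arrays (adjusted p = 0.0988). Their summed intensity ranged from 6407 to 10563 in GpatCD-CD (median 7748), 3787 to 6812 in GpatCD-HF (median 6223), 5218 to 9282 in GpatHF-CD (median 6947) and 4711 to 7752 in GpatHF-HF (median 5237), and none was at 0 on any array. The macrophage median was -0.45 in the chow line and -0.31 in the HFD line, where that of the members was -0.08 and -0.39. Of 10 T and NK cell markers, 7 dendritic cell markers and 4 B cell markers 0 passed, with medians of -0.14, -0.05 and 0.03, and of 9 hepatocyte and 7 endothelial markers 0 passed, with medians of 0.06 and -0.01. By line, the hepatocyte median was 0.16 in the chow line, with 0 of 9 below 0, and -0.06 in the HFD line, with 9 of 9 below 0. The T and NK cell median was -0.23 in the chow line and -0.05 in the HFD line, and 0 markers of either list passed in either line. Of 6 stellate cell markers Rgs5 rose (0.57 ± 0.15, adjusted p = 0.0390), and of 4 bile duct markers Epcam fell (-0.55 ± 0.10, adjusted p = 0.00330). The call of Rgs5 was lost in 12 of 24 fits with an array left out and in 1 of 12 other settings (adjusted p = 0.0778). The list medians were -0.01 for stellate and 0.003 for bile duct markers, with 3 of 6 and 2 of 4 below 0, so neither list moved as a whole. In whole liver, fewer cells of a type and less RNA per cell cannot be told apart, and the part of these markers in the differences of Psmb8 and Psmb9 was not tested.

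**Figure D4:**
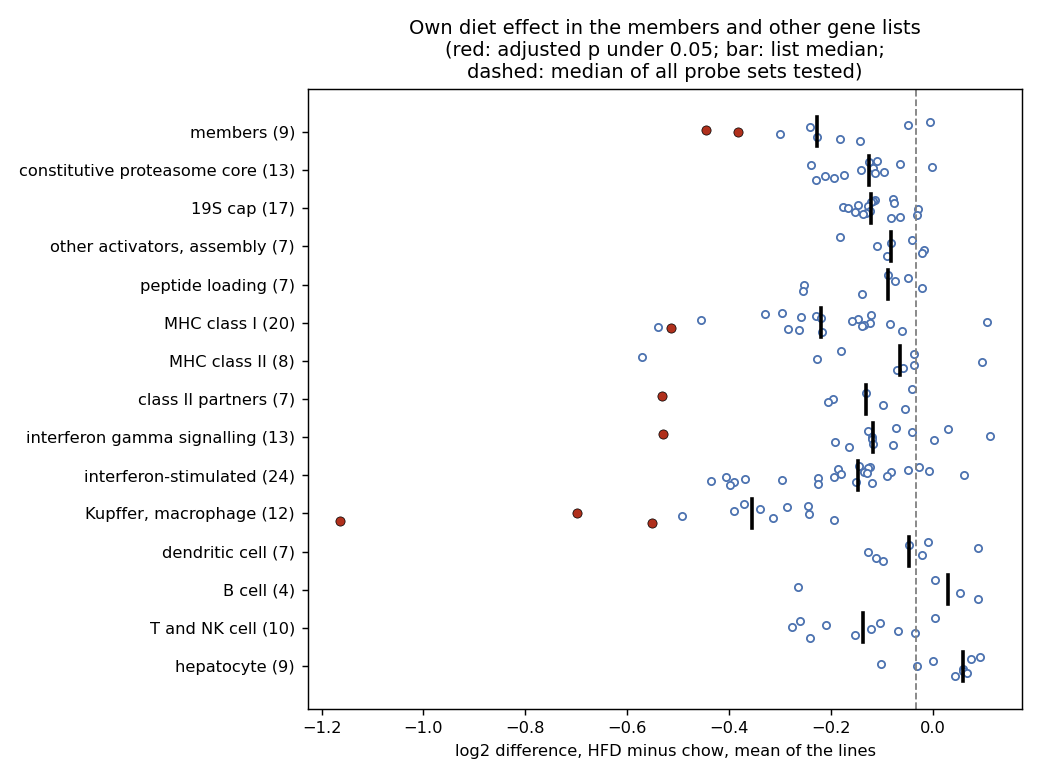
Log2 difference of HFD minus chow, averaged over the lines, for each tested gene of the members and of 14 other lists, with the list median as a bar and the median of all tested probe sets as a dashed line. Red points passed an adjusted p under 0.05, 2 among the members, 3 among the macrophage markers and 1 each in MHC class I, class II partners and interferon gamma signalling.

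Over the 24 arrays, the members were compared with each other after centring each array on its median, as a description of points that share array quality. The 44 pairs of probe sets of different members had a median Pearson r of 0.25, with 39 above 0. After taking out the group means the median was 0.20, with 36 above 0. The same values were not computed for pairs of other genes. The immunosubunits Psmb10 and Psmb8 had r = 0.804, Psme1 and Psmb8 0.782, and Psmb9 and Psmb8 0.686. On the 20 arrays without the 4 that stood apart these became 0.625, 0.728 and 0.727, and that of Psme1 and Psmb10 went from 0.695 to 0.398. Tap1 and Psmb9, the divergent neighbours, had r = 0.453, and 0.193 after taking out the group means.

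The probe sets most like each member over all named genes were also found. Each r is among the highest out of many probe sets, so it is a description without a test. For Psmb8 they were Tmem19 (r = 0.873, n = 24), Edem2 (0.864) and Chpf (0.828). Those for Psmb9 were Lrrc59 (0.823), Lnx2 (0.803) and Mtmr4 (0.801), and those for Psmb10 were Stimate (0.879), Ppp1r14b (0.878) and Ddx54 (0.856), which on 20 arrays without the 4 became 0.678, 0.740 and 0.718. The nearest to Psme1 was Slc12a7 (0.864), to Psme2 Triap1 (0.821), to Tap1 Xiap (0.780), to Tap2 Ston2 (0.834) and to B2m Sdc2 (0.862). Cd74 was nearest to RT1-Ba, a chain of the MHC class II molecule that Cd74 accompanies, at r = 0.833, followed by Rac2 (0.788) and Abcg1 (0.763).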

How the data were processed

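Liver RNA of 24 female rats was measured on 1 array each. The authors deposited an intensity on the linear scale for every probe set. The submitters' processing notes name Affymetrix Expression Console and PLIER. No version, background correction or normalization is given in the sources used here. Array medians lay between 97.9 and 128, so arrays had not been brought to a common distribution, and the number of arrays limits the precision.

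Log2(intensity + 16) was computed, which understates changes of dim probe sets. The 25% of probe sets with the lowest mean (5230, mean log2 under 5.72) were left out. The other 15687 were fitted with 4 group means over all arrays in limma 3.58.1 (R 4.3.3; lmFit, contrasts.fit, eBayes with trend), two-sided, with Benjamini-Hochberg adjustment over all of them and a threshold of 0.05. The fit was tested on simulated data. Exact permutation tests went through every regrouping of the arrays in Python 3.11.15 with numpy 2.4.6. Values are ± SE unless SD is named. For a gene with several probe sets, lists used the brightest.

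All members were tested in every comparison, but not every member is named for each. From each list, those past the threshold are named, and up to 4 with the smallest p. The members and lists were chosen with earlier results of these data known. Symbols came from the platform annotation, updated through RefSeq: 18197 probe sets had 1 symbol, 960 several and 1760 none, and 18052 of the first were matched. Alternatives were quantile normalization, centring, no filter or a 50% filter, offsets of 1 and 50, eBayes without trend or robust, array weights, the brightest probe set of each gene alone, a fit of the compared groups alone, the 4 arrays 21, 22, 24 and 25 as a block or left out, and each array left out. Protein sequences were not used here.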

Additional observations from a re-analysis of the deposited data

Results flagged for a closer look

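In 2 of the 40 groups of member values examined, 1 array lay far from the others of its group by Dixon's criterion, which chance meets in about 1 group in 20. Psmb10 in GpatHF-HF had its lowest value, 8.46, on array 24, with the next array at 9.18. That array was among the 4 that stood apart over the probe sets tested. B2m in GpatHF-HF had its highest value, 13.04, on array 47, with the next array at 12.78.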

How the results depend on the processing

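Psmb8 and Psmb9 passed in the averaged own-diet comparison under all 12 alternative settings other than leaving out single arrays, with an adjusted p of at most 0.0332 and 0.0385. With each array left out in turn, 1 to 2 member probe sets passed there, the lower count without array 34, 42, 24 or 46. In the HFD line, 0 member probe sets passed as reported, but 1 passed with the lowest 50% left out (Psme2), with robust eBayes (Psme2), with array weights (Psmb8) and with 1 probe set per gene (Psme2), 2 with the 4 arrays as a block (both Psme2 probe sets), 3 with only the groups compared, and 0 to 2 with single arrays left out. The counts for the other comparisons were 0 under every setting run. With single arrays left out, the members' median difference ran from -0.24 to 0.0047 for own diet in the chow line and from -0.11 to 0.05 for grandpaternal diet on chow, so its sign was not kept in either. It ran from -0.42 to -0.25 for own diet in the HFD line, -0.26 to -0.16 for own diet averaged, -0.31 to -0.17 for grandpaternal diet on HFD, -0.17 to -0.11 for grandpaternal diet averaged and -0.30 to -0.16 for the interaction. Psmb10 minus Psmb7 between the lines on chow ranged from -0.44 to -0.31 with single arrays left out, and passed without array 25. No member that passed changed direction.

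Over all probe sets, own diet in the chow line called 50 as reported, 89 after quantile normalization and 79 after centring, of which 38, 65 and 54 were lower. The averaged own diet called 312, 427 and 333, of which 255, 260 and 212 were lower, and own diet in the HFD line 118, 90 and 98, of which 103, 56 and 73 were lower. No paired analysis was possible because each array number occurs in 1 group only. The groups of 5 to 7 arrays, the unknown normalization by the authors and the lower brightness of GpatHF-HF limit what can be read from differences of this size.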
